A study of Mus musculus with 87 samples.

Results

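The B6 Chr4-cl KO lineage is the set of mice of strain B6 (C57BL/6) that carry the Chr4-cl deletion on both copies of chromosome 4 (KO/KO). It was taken by strain and genotype from the labels, without use of any read count. There were 12 such mice, namely 4 founders, 3 animals of generation F3 and 5 of generation F4. They were set against the 2 Chr4-cl WT mice of strain B6 and against 2 B6 ES cell lines, B6 #2 and B6 #11, in which 1 of the alleles is deleted (KO/WT). These 16 libraries belong to a series of 87. In all of them genomic DNA was captured with probes against the long terminal repeats (LTRs) of ETn elements and sequenced in pairs, so that each counted read lies in unique sequence beside an ETn element. Each library comes from 1 mouse or 1 cell line.

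The deletion was made in B6 ES cells of the KOMP repository with a pair of Cas9 guides and a repair oligonucleotide, and heterozygous clones were injected into blastocysts. The founders were mated in 2 pairs, T2379 (female, tail) with T2680 (male, spleen) and T2613 (female, ear) with T2682 (male, spleen), and their own parents are not given in the labels. The F3 animals T00431 (female), T00460 (male) and T00432 (female) were tail samples and descend from both pairs through parents that were not sequenced. The F4 animals, all males, are offspring of T00460 with T00431 or T00432, and T09691 and T09692 were blood samples and T09693, T09694 and T09695 ear samples. The WT mice T09655 and T09656 were females and blood samples. Tissue and sex therefore differed between KO and WT mice, and where the groups are compared as a whole, genotype, tissue, sex and family cannot be told apart.

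ETn elements are endogenous retroviruses of the mouse that lack genes of their own for replication and move with the proteins of the related MusD elements. A new copy adds a site at which unique sequence lies beside an LTR, so it appears in capture-seq as a locus that parents do not have, while an old copy that is lost or segregates in a strain appears as a locus missing from some animals. KRAB zinc finger proteins (KRAB-ZFPs) bind to retroelement sequences and recruit the corepressor KAP1 with histone and DNA methylation machinery, and the genes for many of them lie in clusters such as the one on chromosome 4.

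The deleted interval was placed by matching the guides to the mm9 genome, and the target sites are shown because they set its ends. Both sites are on the minus strand and are written 5′ to 3′ with the PAM in capitals.
guide 1, chr4:144973817-144973839: caaaggggctcctcgatggaTGG
guide 2, chr4:147227521-147227544: gtttatggccgtgctaaggtcAGG
The 2 cuts, 3 bases from each PAM, lie after base 144973822 and after base 147227526. The interval between them, chr4:144973823-147227526, spans 2253704 bp (2.25 Mb).

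The repair oligonucleotide joins both ends, and its sequence is given because it shows the intended junction. Bases in capitals match the reference to the right of the deletion, and lower case bases lie to the left or at the join.
repair oligonucleotide: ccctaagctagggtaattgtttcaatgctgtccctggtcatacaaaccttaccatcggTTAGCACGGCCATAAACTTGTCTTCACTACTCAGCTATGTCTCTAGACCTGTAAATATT
Of its 117 bases, 56 matched the reference up to base 144973821 and 59 matched it from base 147227528 on.

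Of 1274 ETn capture probes, 2 lie inside the interval by their coordinates, both within the strongest locus found there. They are printed because they lie in that locus, and both are identical to the reference. Which probes of the pool captured the locus was not tested.
probe at chr4:146923828-146923947: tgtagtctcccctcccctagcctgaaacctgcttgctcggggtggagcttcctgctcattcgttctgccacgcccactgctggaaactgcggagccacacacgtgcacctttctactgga
probe at chr4:146918868-146918987: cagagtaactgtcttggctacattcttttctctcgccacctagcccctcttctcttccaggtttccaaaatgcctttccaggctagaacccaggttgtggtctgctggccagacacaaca

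The interval holds 88 annotated genes, 22 of them protein coding. Of 20 KRAB-ZFP genes listed for the cluster, 17 were found in the annotation and all 17 lie inside the interval. They run from Gm13225 at chr4:145100662-145129091 to Zfp933 at chr4:147197095-147222475 and include Rex2, Zfp600, Zfp534 and 2610305D13Rik. Gm21082, Gm30910 and LOC102638055 were not found under these names.

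The 16 libraries held 525419 to 1046650 reads, with 815567 as the median. Levels are given in reads per 1e6 reads of the library (RPM). The threshold for calling a locus was 10 RPM, equal to 5.25 reads in T2379 and to 10.47 reads in T00460, the deepest. Captured reads carry no molecular identifiers, so limits drawn from counts cover counting error only. Of 5018 loci found over all libraries of the series, 2912 were called in at least 1 of the 16 B6 libraries, and 2345 were called in all 16. The founder T2379 had the lowest depth and stood apart. It had 39866 regions, of which 80.2% held 1 read, against 50.5 to 69.7% in the other 15 libraries, and 8.02% of its reads lay outside the loci, against 0.55 to 1.23%. It lacked 27 of the 2372 loci that every other B6 library had, while the others lacked 0 to 4. Counts that move with T2379 are given also without it.

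The reads of the deleted interval check the genotype labels. WT mice had 1877.5 and 1866.3 RPM in the interval. The founders T2379, T2613, T2680 and T2682 had 338.8, 101.6, 86.3 and 90.5 RPM, the F3 animals T00431, T00460 and T00432 had 97.0, 100.3 and 93.4 RPM, and the F4 animals T09691 to T09695 had 82.8, 96.5, 117.1, 99.2 and 82.0 RPM. All 12 KO libraries lay below both WT libraries, and T2379 was the highest of the 12. The KO mean was 115.5 ± 71.0 RPM (SD, n = 12) against 1871.9 ± 7.9 RPM (SD, n = 2), a difference of -1756.5 RPM with an exact permutation p of 0.022, the smallest that 12 against 2 libraries allow. KO mice thus held 6.17% of the WT level, or 5.08% without T2379 (95.2 ± 9.99 RPM, n = 11, exact permutation p = 0.0256, again the smallest possible). Within blood, T09691 and T09692 differed from the WT mice by -1782.3 RPM. An exact permutation test of 2 against 2 cannot give a p below 0.333.

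**Figure D1:**
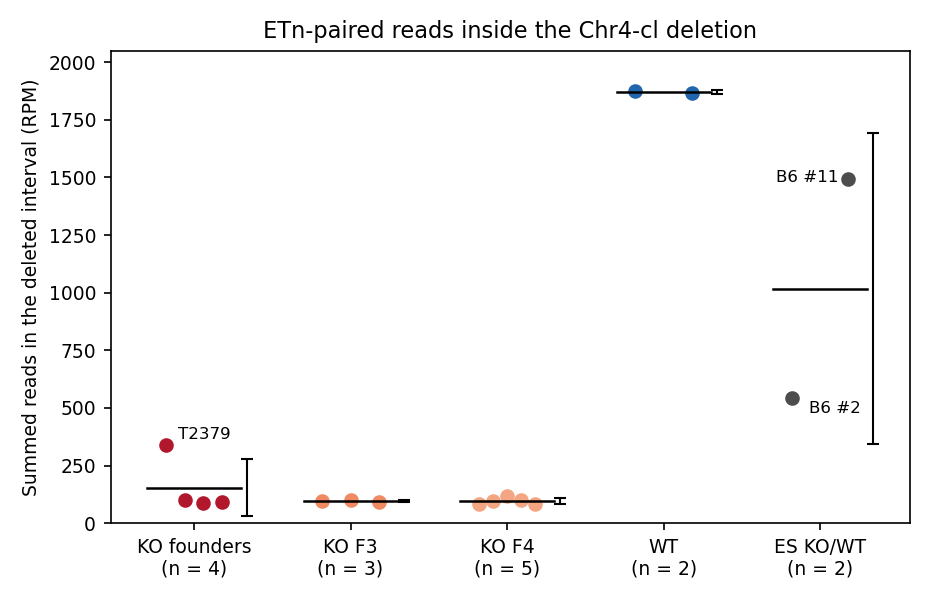
Summed RPM of all regions inside the deleted interval, 1 point per library, with the mean of each group as a line and the SD as a bar beside it. The 12 KO mice lie between 82.0 and 338.8 RPM, with T2379 the highest, the WT mice at 1877.5 and 1866.3 RPM, and the ES cell lines apart at 541.5 and 1494.2 RPM.

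The ES cell lines, which keep 1 copy of the interval by their label, did not have the same level. B6 #2 had 541.5 RPM and B6 #11 had 1494.2 RPM, which is 28.9 and 79.8% of the WT mean and a 2.76-fold difference between the lines. Their mean was 54.4% of WT, and the exact permutation test of 2 against 2 gave p = 0.333, the smallest possible. The 5 loci on either side of the interval showed no such gap. On the left side, from chr4:141597384 to 144446729, B6 #2 and B6 #11 had 104.6 and 104.8% of the WT level, and on the right side, from chr4:147370238 to 150522691, 104.5 and 106.2%. KO mice had 99.8% of the WT level on the left (exact permutation p = 0.791, n = 12 and 2) and 98.5% on the right (exact permutation p = 0.923).

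Reads on the X chromosome show how far the read dose follows the copy number, because males have 1 X and females have a pair. Over 118 X-linked loci with at least 100 RPM in females, the median log2 ratio to the female mean lay between -0.43 and -0.34 in the 8 males. In the females T2613, T00431, T00432, T09655 and T09656 it was 0.03, 0.04, 0.04, 0.03 and 0.05, and in the female T2379 it was -0.26. The sexes did not overlap, though T2379 lay closer to the males than to the other females. Males were lower by 0.37 on the log2 scale, a ratio of 0.774 (-0.38 ± 0.03 against -0.01 ± 0.12, exact permutation p = 0.000666, the smallest possible), and without T2379 the ratio was 0.749 over 117 loci (exact permutation p = 0.00155, the smallest possible). Taking loci by their level in males instead of females, which was chosen after seeing the data, left 112 loci and the same difference of -0.37. T2379 also had 256.9 RPM on chromosome Y, against 63.1 to 81.4 RPM in the other females and 1427.2 to 1635.1 RPM in males. The cause of its values was not tested.

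**Figure D2:**
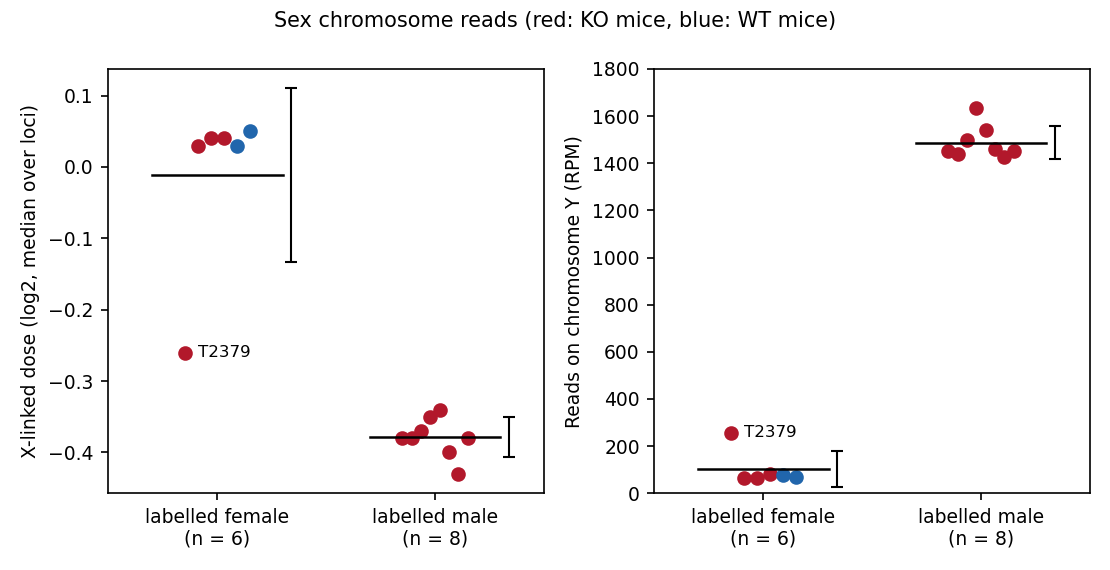
Left, median log2 ratio of RPM to the female mean over X-linked loci for each mouse. Right, RPM on chromosome Y. Points are libraries grouped by the labelled sex (red KO, blue WT), lines are means and bars are SD. The 8 males lie between -0.43 and -0.34 on the left and above 1427 RPM on the right, and T2379, labelled female, stands apart from the other 5 females in both panels, at -0.26 and 256.9 RPM.

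Of the 8 called loci of the interval, all 8 were lower in every KO library than in both WT libraries. Among all 2912 loci called in B6 libraries, 1.61% had this order. Of the 8, chr4:145596129-145596195 and chr4:146172342-146172409 were each called in 1 WT mouse and no other B6 library. Their order thus follows in part from how they were chosen, and the other 6 were called in both WT mice. Both ES lines lay below both WT mice at 6 of the 8, against 26.6% of all loci. The 8 loci are described from left to right along the chromosome.

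The first, chr4:145019453-145021647, lies in an intron of the noncoding transcript Gm13227 and has reference ETn sequence, meaning a match to the capture probes in the genome, within 1 kb. WT mice had 359.1 and 357.8 RPM, and KO mice had 3.0 to 19 RPM with a median of 5.4. The mean fell to 2.0% of WT, with B6 #2 at 93.6 and B6 #11 at 290.0 RPM in between. By edgeR's quasi-likelihood test over 2457 autosomal loci the log2 change was -5.61 ± 0.39 (SE, adjusted p = 6.17e-06). The second, chr4:145080501-145083011, lies 17.6 kb from the KRAB-ZFP gene Gm13225 and had the largest edgeR change among the loci of the interval with reads in all 12 KO libraries. WT mice had 533.7 and 524.9 RPM, KO mice 2.4 to 36.2 RPM with a median of 6.5, and the ES lines 150.5 and 447.3 RPM (edgeR log2 change -6.08 ± 0.51, adjusted p = 2.79e-05).

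A very short locus at chr4:145596129-145596195, 2.3 kb from the pseudogene Gm13240, had no read in any KO mouse and 6.6 and 10.1 RPM in WT mice, near the calling level. The locus at chr4:146107781-146109027, 11.8 kb from the noncoding gene Gm17452, kept the largest share. WT mice had 78.5 and 85.2 RPM and KO mice 13.3 to 45.7 RPM with a median of 17.6, which is 23.9% of WT. It was called in all 12 KO libraries, but the groups did not overlap (edgeR log2 change -2.07 ± 0.36, adjusted p = 0.0182). Here the ES lines stood at 38.0 and 77.4 RPM. Inside Gm17452, the short intronic locus chr4:146172342-146172409 had no KO read and 12.2 and 6.7 RPM in WT mice.

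Within an intron of the noncoding gene Gm16889, the locus chr4:146815715-146816638 had 24.3 and 31.4 RPM in WT mice and a single read over all 12 KO libraries, in T2682 (edgeR log2 change -6.95 ± 0.60, adjusted p = 0.0034). The ES lines had 13.9 and 28.3 RPM. The strongest locus of the interval, chr4:146917867-146925152, holds both capture probes printed above and lies 0.3 kb from Gm16503. WT mice had 784.6 and 782.9 RPM, and KO mice 49.4 to 220.8 RPM with a median of 65.0, so every KO library was still called there. T2379 was the highest of them, and the next highest was T09693 at 76.0 RPM. The KO mean was 9.7% of WT, or 8.0% without T2379 (edgeR log2 change -3.37 ± 0.40, adjusted p = 0.000681). The last locus, chr4:146991031-146991541, lies in an intron of the KRAB-ZFP gene 2610305D13Rik. It had 46.4 and 44.9 RPM in WT mice, 12.7 and 34.4 RPM in the ES lines and 0 reads in the 12 KO libraries. Against 3 counts over the pooled KO reads, WT was at least 145-fold higher (edgeR adjusted p = 0.028). The edgeR calls at this locus and near Gm17452 were lost without either WT mouse (adjusted p = 0.318 and 0.294, and 0.158 and 0.277), and that in Gm16889 without T09656 (0.061) and within blood (0.0933). The call in 2610305D13Rik was also lost with DESeq2 (0.106) and without either ES line (0.0746 and 0.0887), and with tissue as a covariate this locus and the one in Gm16889 had an adjusted p of 1, while at both every KO library had fewer reads per 1e6 than either WT mouse.

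**Figure D3:**
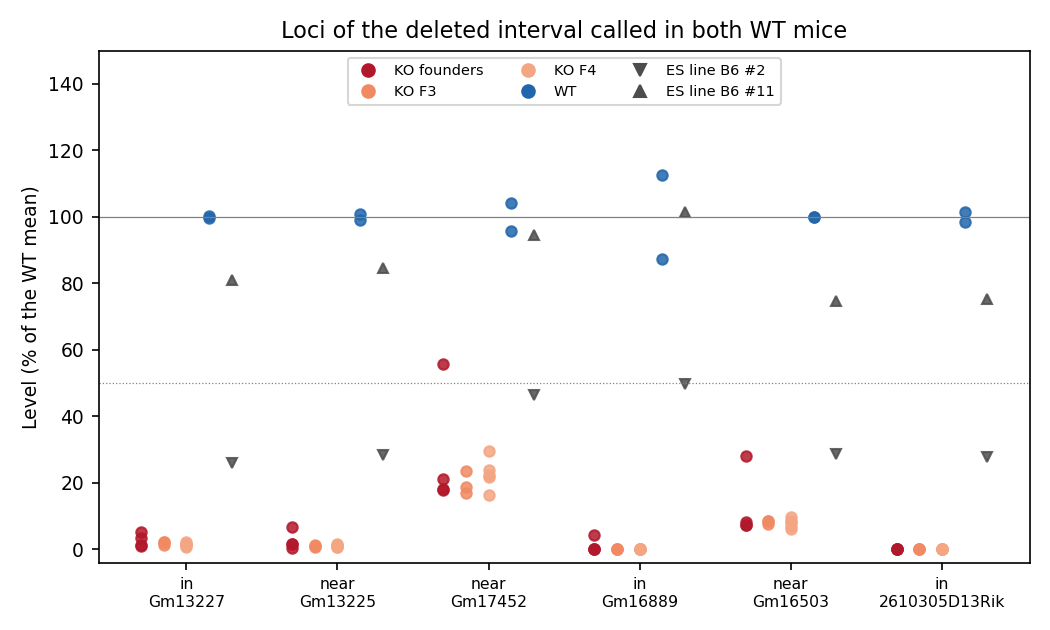
RPM at the 6 loci of the interval called in both WT mice, as a percentage of the WT mean, from left to right along chromosome 4. Each point is 1 library, the solid line marks the WT mean and the dotted line 50% of it. KO means range from 0.0 to 23.9%, the single KO point above 50% is T2379 near Gm17452, and ES line B6 #2 lies below B6 #11 at all 6 loci.

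All 12 KO libraries had reads at 4 of these loci, and all 4 have reference ETn sequence within 1 kb. Of the other 4, 3 had no KO read and 1 had a single read, and 1 of these 4 has reference ETn sequence. Where the residual KO reads come from was not tested. Between F4 and founders no locus of the interval passed edgeR's test, with adjusted p of 0.594 to 1.

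Over the autosomes, 14 of 2457 loci passed the threshold of 0.05 on edgeR's adjusted p between KO and WT mice, which is 0.57%. Of these, 10 were lower in KO (0.407%) and 4 higher (0.163%). The 6 loci of the interval described above with an adjusted p were among the 10. The other 4 lie on chromosome 3, have no reference ETn sequence within 1 kb, and were called in both WT mice and in none of the other 14 libraries. At chr3:19448000-19449158, in an intron of Dnajc5b, the WT mice had 326.0 and 325.3 RPM and KO mice no read, so that WT was at least 1040-fold higher against 3 counts over the pooled KO reads (edgeR adjusted p = 0.00617). At chr3:73237649-73238715, 201.0 kb from Bche, the gene of butyrylcholinesterase, the WT mice had 99.5 and 108.8 RPM against no KO read, at least 332-fold higher (edgeR adjusted p = 0.0237). The pair at chr3:7874329-7875519 (253.1 and 270.3 RPM in WT) and chr3:59784204-59787061 (207.8 and 215.3 RPM in WT, 6.7 kb from Gm9696) had 1 KO read each (edgeR adjusted p = 0.00175 and 4.89e-05). No library of the other crosses called 3 of these loci, whereas chr3:59784204-59787061 was called in 48 of the 52 B6/129 libraries. The Dnajc5b and Bche calls were lost with DESeq2 (adjusted p = 1 for both) and without either WT mouse (edgeR adjusted p = 0.179 and 0.259, and 0.574 and 0.547), and the call at chr3:7874329-7875519 with DESeq2 (0.0678). With tissue as a covariate among the mice all 4 had an edgeR adjusted p of 1, while their log2 changes were -11.8 to -9.41, against -11.1 to -9.41 without the covariate.

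The 4 loci higher in KO mice changed less, except for 1. At chr14:53425844-53427387, 3.2 kb from the T cell receptor segment Tcra-V22.1, KO mice had 7.6 to 21.0 RPM with a median of 15.2, WT mice 1.1 and 1.1 RPM, and the ES lines 0.0 and 1.2 RPM. Its log2 change against WT was 3.58 ± 0.53 (edgeR adjusted p = 0.00467), a call lost with DESeq2 (0.0569) and without either WT mouse (edgeR adjusted p = 0.158 and 0.223). The KO blood libraries T09691 and T09692 had 18.4 and 8.9 RPM there, so the gap was also present within blood. In the other crosses this locus was called in 44 of the 52 B6/129 libraries and in 6 of the 8 of the Chr2-cl mating. The remaining 3 are reference ETn loci on chromosome 3 and lie between the WT-only loci named above. The levels of chr3:35311384-35312543 were 158.0 to 234.4 RPM in KO and 153.6 and 158.1 RPM in WT mice, with a log2 change of 0.47 (edgeR adjusted p = 0.0211). In an intron of Lhfp, chr3:52915698-52917385 had 173.2 to 249.6 RPM against 171.3 and 164.9 RPM (log2 change 0.44, edgeR adjusted p = 0.0163). The third, chr3:35065871-35068100, had a log2 change of 0.21 (edgeR adjusted p = 0.0248) and, as at the first, the groups overlapped. All 3 calls were lost without either WT mouse, without TMM factors, without the filter on low counts and within blood (edgeR adjusted p = 0.109 to 1).

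Without T2379 the number of called loci was 23, without the WT mouse T09656 it was 7, within blood it was 27, and with tissue as a covariate among the mice it was 411. The count over the genome thus moves with the libraries and the tissue term.

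The paper names the ES cell lines as the source of the KO mice, by way of B6 albino blastocysts. The parents of the founders are not given in the labels, so the mice may also carry genome from other animals. A difference from the ES cells thus need not have arisen in the KO lineage. Against the ES cells, 9 of 2457 loci passed edgeR's test, or 0.366%, with 5 higher in KO mice (0.204%) and 4 lower (0.163%). All 4 that were lower are interval loci, at Gm13227, Gm13225, Gm16889 and Gm16503, with log2 changes of -4.68, -5.23, -6.52 and -2.39 (edgeR adjusted p of 5.18e-05, 0.000113, 0.0069 and 0.0208). The loci near Gm17452 and in 2610305D13Rik did not pass (edgeR adjusted p = 0.202 and 0.0876). Without B6 #11 the 4 log2 changes were -3.65, -4.24, -5.93 and -1.54, and the calls at Gm16889 (edgeR adjusted p = 0.191) and Gm16503 (1) were lost. That at Gm16889 was also lost without T2682 (0.091), and that at Gm16503 without any 1 of the F3 animals (0.0504 to 0.0547). Without T2379 the count was 25, without the ES line B6 #11 it was 5, and DESeq2 gave 15.

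Among loci higher in KO mice than in ES cells, chr17:72973004-72973916 differed most. It lies 20 kb from Alk, a receptor tyrosine kinase gene, and has no reference ETn sequence. The founders had 26.6, 117.7, 86.3 and 82.0 RPM, the F3 animals 142.6, 107.0 and 136.5 RPM, and the F4 animals 87.4, 103.1, 147.5, 111.2 and 142.3 RPM. The WT mice had 80.7 and 79.6 RPM, so all 14 mice were called and both ES lines had no read. KO was at least 58.4-fold higher than ES cells against 3 counts over the pooled ES reads (edgeR adjusted p = 5.18e-05). At chr14:44757153-44757630, 8.1 kb from 4930503E14Rik, KO mice had 7.6 to 15.2 RPM, WT mice 9.9 and 15.7 RPM and ES cells none (edgeR adjusted p = 0.000182). The locus near Tcra-V22.1 was also higher than in ES cells, by 4.31 on the log2 scale (edgeR adjusted p = 0.00309), a call lost with DESeq2 (0.161) and without B6 #2 (0.0555). A pair of reference loci on chromosome 16, chr16:54133470-54136702 and chr16:69053626-69056623, differed by 0.43 and 0.30 on the log2 scale (edgeR adjusted p = 0.0178 and 0.0468). The first call was lost without either ES line (adjusted p = 0.377 and 0.315), and the second in 19 of 21 alternatives, DESeq2 (0.0547) and library totals without TMM (0.755) among them.

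The number of called loci did not separate the genotypes. KO mice had 2504 to 2664 called loci (2543.9 ± 47.4, SD, n = 12), WT mice 2537 and 2533, and both ES lines 2500. The exact permutation p for KO against WT was 0.835. Founders had 2664, 2518, 2528 and 2504 loci, F3 animals 2524, 2615 and 2521, and F4 animals 2542, 2510, 2523, 2549 and 2529, so the highest values belonged to T2379 and to T00460, the deepest library.

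A germ line gain over the generations would appear as a locus called in at least 2 descendants without a read in any founder. There were 0 such loci. The animals between founders and F3 were not sequenced, so founders stand for the ancestors of F3. Leaving T2379 out of the founders gave 9 loci. They included chr1:39727070-39728535 (287.4 RPM in T2379 and 7 carriers among the descendants), chr13:31771886-31774698 (123.7 RPM in T2379, 4 carriers) and chr8:71844690-71846203 (57.1 RPM in T2379, 5 carriers, both WT mice also called). Of the 52 B6/129 libraries, 0 called the chromosome 1 locus, 48 the chromosome 13 locus and 48 the chromosome 8 locus. At chr4:43778214-43778573, chr4:60081552-60082612 and chr8:73808531-73809559, T2379 had reads below the call only, at 9.5, 7.6 and 7.6 RPM. These loci had 3, 3 and 5 carriers, and both WT mice were called at the last. There the count of 0 rests on these reads in T2379. By edgeR, 0 of 2457 loci passed between F4 and founders (0%), with 155 at an unadjusted p under 0.05, and DESeq2 also called 0. Without T2379, or without T2613, edgeR called 5.

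A gain private to 1 descendant was found once. The F3 female T00431 had 30.4 RPM (26 reads) at chr15:21562452-21562988, between genes and 43.2 kb from the cadherin gene Cdh12. No other animal or cell line of the series had a read there, and no reference ETn sequence lies within 1 kb. F3 animals thus had 1, 0 and 0 such loci and the 5 F4 animals 0 each, and with 1 event in 8 animals the exact permutation test (p = 0.75) cannot show a difference. Without T00431 the total was 0.

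Loci called in no other library of the series, whether or not ancestors had reads below the call, are private regions. Among descendants, T00431 had 1, T00460 had 7, T00432 had 1, T09691 had 1 and T09694 had 5, and T09692, T09693 and T09695 had 0. Apart from the locus near Cdh12, all 14 lay at 10.3 to 18.0 RPM and had reads in ancestors. The highest, in T09694, lies at chr13:61736613-61737253, 65.2 kb from the cathepsin gene Cts3, with 18.0 RPM there and 1.3 to 9.5 RPM in all other B6 libraries. The others of T09694 lie at chr1:146073281-146073579 (12 RPM, 17.5 kb from Rgs1), chr19:3072612-3072685 (10.5 RPM), chr19:8197967-8198485 (10.5 RPM, in an intron of Slc22a28) and chrY:1038551-1038919 (12 RPM). The 7 of T00460 held 10.5 to 13.4 RPM, with the highest at chr7:34018480-34019290, 67.8 kb from Gm6003. They lie also at chr1:103034033-103034491, chr3:59800030-59800493, chr4:7968918-7969964, chr4:101517510-101518509, chr7:28566044-28567438 and chr10:33515390-33515850. T00432 had chrX:33165717-33166057 at 10.8 RPM and T09691 had chr17:16820334-16820387 at 10.3 RPM.

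For founders, WT mice and ES cells private regions have no sequenced ancestor to compare with and are upper bounds. T2379 had 90, of which 46 lay within 1 kb of reference ETn sequence and 84 had reads in another library. The highest were chr7:88460176-88461207 in an intron of Pde8a (121.8 RPM, 64 reads) and chr7:114343723-114344654 (93.3 RPM). T2613 had 2, both strong and without a read in any other library, at chr1:143068862-143069904 (303.5 RPM, 245 reads) and at chr1:133532114-133533215 (190.8 RPM, 154 reads), 1.7 kb from Ctse. T2680 had 3, at chr11:59941537-59941998 in an intron of Rai1 (15 RPM, no read elsewhere), chr1:57714400-57714452 and chr12:40769157-40769640 (10 RPM each). T2682 had 2 at 11.0 RPM each, at chr2:70333300-70333833 and chr6:69504380-69504436.

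In the WT mice, T09655 had 1 private region at chr5:110402295-110402844 (11.1 RPM) and T09656 had 3 at 10.1 RPM each. One of these 3 is the short locus in the deleted interval near Gm13240, and the others are chr13:62931391-62931918, 6.3 kb from Fbp2, and chrX:31663932-31664437. The ES lines had 0.

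Of 2398 loci called in all 4 founders, 13 (0.542%) had no read in at least 1 descendant and 42 (1.75%) were below 10 RPM in at least 1. All 13 were without reads in F4 animals and none in F3 animals, and 8 of the 13 have reference ETn sequence. Of the 42, 22 had a founder mean of at least 100 RPM. All 22 were absent in some F4 animal and 1 also in an F3 animal, and 19 of the 22 have reference ETn sequence. T09691 lacked 6, T09692 11, T09693 8, T09694 6 and T09695 9 of the 22. These counts require a call in T2379. They leave out chr8:36990562-36993359 and chr8:80671083-80672608, where T2379 had 3.8 and 1.9 RPM. The other founders had 192.5 to 318.1 RPM at these loci, and T09693 had no read. The counts below 10 RPM also leave out chr8:31594396-31597270. There T2379 had 1.9 RPM, the other founders 312.1 to 418.8 RPM and T09693 4.6 RPM.

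The strongest of the 13, chr1:7910467-7913172, is a reference element 438.4 kb from Sntg1. Founders had 152.3, 441.0, 432.6 and 455.1 RPM and F3 animals 355.3, 335.4 and 310.2 RPM. In F4, T09693 and T09695 had 329.9 and 371.7 RPM, while T09691 and T09692 had none and T09694 had 1.5 RPM. Thus all 3 F3 animals, the parents of F4, carried the locus, and the F4 animals split into carriers and non-carriers. At chr14:30052602-30055070, in an intron of the calcium channel gene Cacna2d3 and without reference ETn sequence, F3 animals had 327.3, 307.6 and 390.5 RPM, T09691, T09693 and T09694 had 331.2, 381.6 and 290.0 RPM, and T09692 and T09695 had 0.0 and 1.3 RPM. The WT mice had 330.4 and 437.4 RPM and the ES lines 2.5 RPM each. In the other crosses this locus was called in 51 of the 52 B6/129 libraries.

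Chromosome 8 held loci with and without reference ETn sequence side by side. At chr8:41389219-41391229 (intron of Fgf20) and chr8:42599372-42602555 (96.9 kb from Frg1), both without reference ETn sequence, T09693 and T09694 had 249.3 and 283.9 RPM and 343.6 and 362.1 RPM, and T09691, T09692 and T09695 had 0.0 to 2.2 RPM. F3 animals had 185.4 to 192.9 RPM at the first and 249.4 to 302.7 RPM at the second. The WT mice also differed there, with T09655 at 189.0 and 295.1 RPM and T09656 without a read at both. The ES lines had 0.0 to 2.5 RPM. Of the 52 B6/129 libraries, 42 called the first locus and 43 the second. At the reference elements chr8:41654786-41659061 (intron of the phosphatase gene Mtmr7) and chr8:43050277-43052814 (111.8 kb from Zfp353) the same F4 animals were on opposite sides. T09693 and T09694 had 3.0 and 0.0 RPM and 7.6 and 3.0 RPM, while T09691, T09692 and T09695 had 258.7 to 269.5 RPM and 516.8 to 526.8 RPM. F3 animals again lay between, at 177.3 to 203.5 RPM and 322.2 to 364.0 RPM. No test was made of this pattern, which was chosen after its values were seen.

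Chromosome 6 carried 4 of the 13. At chr6:115773182-115774350 (exon of the noncoding transcript BC060267) founders had 163.7 to 264.3 RPM and F3 animals 157.8 to 197.6 RPM, whereas T09692 and T09693 had 2.2 and 0.0 RPM and T09691, T09694 and T09695 had 211.6, 232.9 and 162.8 RPM. The neighbour chr6:115779766-115780938 was also missing from T09692 and T09693, at 0.0 and 1.5 RPM, and so was chr6:117743070-117745235, with 0.0 RPM in both. At chr6:108031173-108034357, 4.1 kb from Setmar, T09692 alone had no read, against 66.9 to 111.2 RPM in the other 4 F4 animals. The least strong of the 10 named loci, chr2:98506394-98507462 in Gm10800, had 18.4 to 33.3 RPM in T09691, T09692 and T09694, 6.1 RPM in T09693 and 0.0 RPM in T09695.

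Presence and absence were then followed over all 16 libraries. Of 2249 loci with at least 100 RPM in 1 B6 library, 101 (4.49%) were not called in all 16. Of these, 2 lie in the deleted interval, 3 on chromosome Y and 96 elsewhere on autosomes. Of the 96, 38 had reference ETn sequence within 1 kb and 58 had none, whereas 98.3% of the 2345 loci called in all 16 libraries had it.

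**Figure D4:**
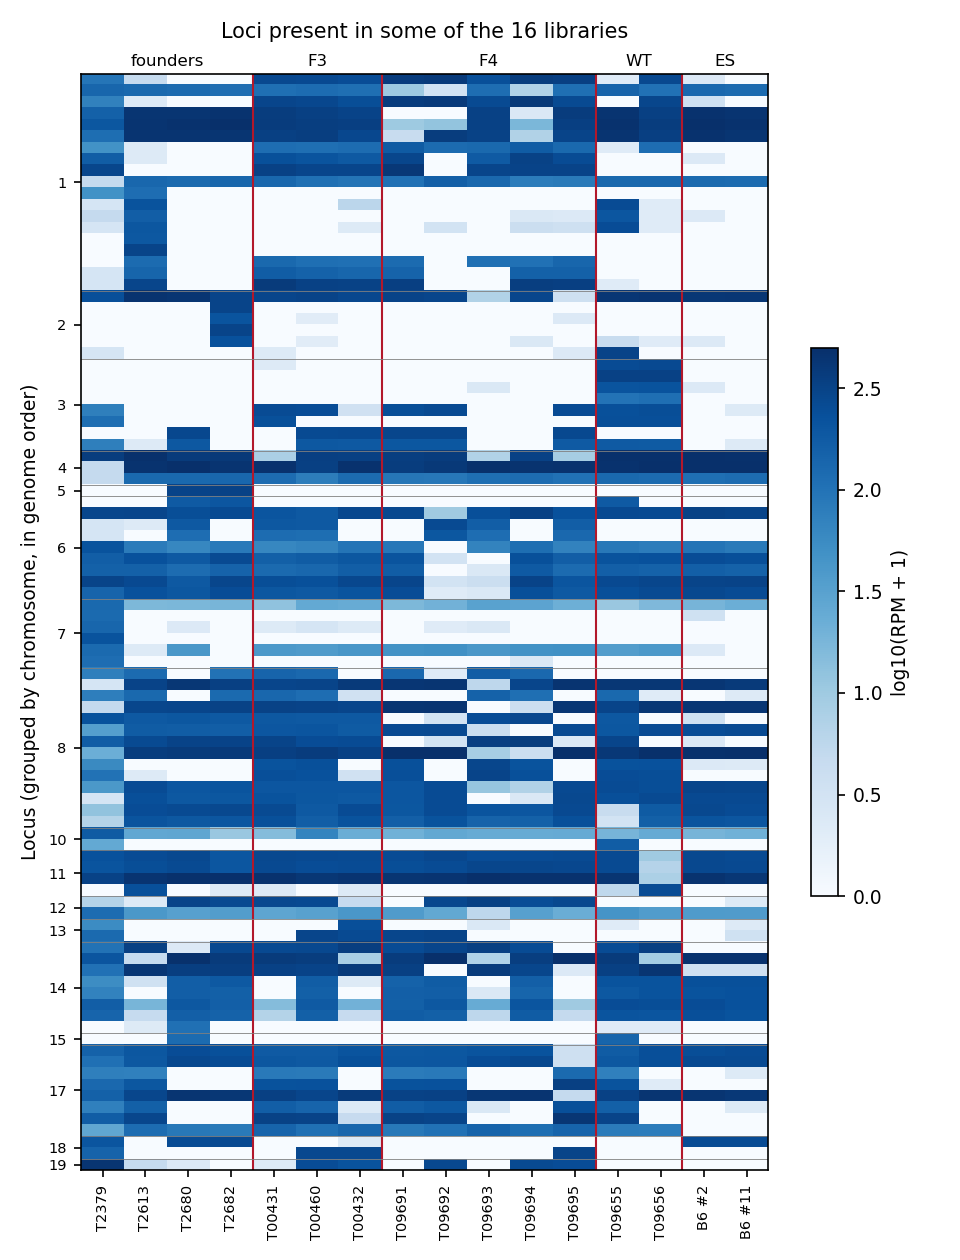
RPM as log10(RPM + 1) at the 96 autosomal loci outside the deleted interval that reached 100 RPM in 1 library and were not called in all 16, with 1 row per locus in genome order and 1 column per library. Rows show blocks of neighbouring loci with the same pattern among the 16 libraries. Examples are the chromosome 2 loci called in T2682 alone and the chromosome 3 loci called in the WT mice alone. The ES columns are alike.

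Both ES lines called the same 38 of the 96, 37 with reference ETn sequence and 1 without. KO mice called 40 to 68 and the WT mice 61 and 50. Loci without reference ETn sequence numbered 32 in T2379, 14 to 21 in the other founders, 19 to 30 in F3 animals, 17 to 22 in F4 animals, and 26 and 16 in the WT mice. The ES lines lacked 58 of the 96 loci, which entered the list through the 14 mice, so the lower number in ES cells follows in part from how the loci were chosen. Of the 96, 27 were called in KO mice alone. As 12 of the 16 libraries are of KO mice, this number follows in part from the number of libraries. Without T2379 the number called in KO mice alone was 23 of 85 variable loci. Of the 96, 77 were called in the other crosses of the series, and 19 were called in B6 libraries alone.

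**Figure D5:**
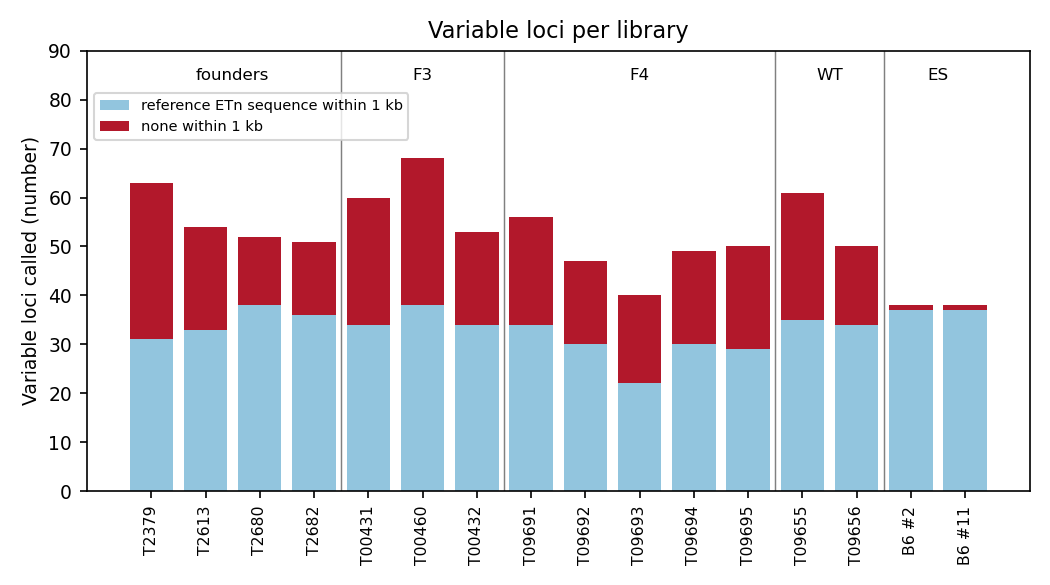
Number of the 96 variable loci called in each library, with reference ETn sequence within 1 kb (blue) or without (red). The ES lines had 1 locus without reference ETn sequence each, and the mice 14 to 32.

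By generation, 91 of the 96 were called in a founder, and the remaining 5 were called in WT mice alone. No locus was called in a descendant without a founder, and none in F4 without F3. The first of these rests on T2379. Counted over the other 15 libraries, 85 autosomal loci outside the interval were variable (31 with and 54 without reference ETn sequence), 66 of them were called in a founder, 6 in WT mice alone, and 13 in descendants but in none of the other 3 founders. All 13 were called in T2379, and 7 of them also in a WT mouse. Of the 96, 36 were present in 1 founder alone, and 19 of these were seen in F3 and 17 in F4. Without T2379, 24 were present in 1 founder alone, and 11 of these were seen in F3 and 11 in F4. A further 29 were called in all founders, and 31 of the loci called in all F3 animals were missing from some F4 animal. At 53 loci some F4 animals were called and others not. The WT mice differed from each other at 25 of the 96, and the ES lines at 0.

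The 10 strongest variable autosomal loci outside the interval, by their highest level, have reference ETn sequence within 1 kb and were missing from 1 to 4 of the 16 libraries. At chr4:31971315-31974164, 76.9 kb from the kinase gene Map3k7, T00431 had 7.0 RPM and the F4 animals split, with T09693 and T09695 at 6.1 and 7.7 RPM and T09691, T09692 and T09694 at 348.4, 363.8 and 323.0 RPM. The founders had 359.7 to 483.1 RPM and the WT mice 477.4 and 481.2 RPM. At chr4:43157656-43160443, in an intron of the synaptic gene Unc13b, T2379 had 3.8 RPM and the other 15 libraries 337.3 to 508.6 RPM. At chr11:28187278-28190348 the WT mouse T09656 had 6.7 RPM and the other libraries 319.7 to 506.5 RPM.

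In an intron of Erc2, another presynaptic gene, chr14:28770513-28773658 was missing from T2613 (3.7 RPM), T00432 (7.2 RPM), T09693 (6.1 RPM) and the WT mouse T09656 (7.9 RPM), and the other libraries had 205.6 to 493.6 RPM. Chromosome 1 had a group near its start. At chr1:8249996-8252673, 98.9 kb from Sntg1, T09691, T09692 and T09694 had 9.2, 11.1 and 16.5 RPM against 328.4 and 342.2 RPM in T09693 and T09695, and at chr1:11764830-11767261 T09691 and T09694 had 3.4 and 6.0 RPM against 305.1 to 360.5 RPM in the other F4 animals. At chr2:10928997-10931653, T09693 and T09695 had 6.1 and 2.6 RPM and all other libraries 237.9 to 458.3 RPM.

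The 96 loci showed 57 patterns of presence on 17 chromosomes. Loci with the same pattern no more than 20 Mb apart formed 21 groups, which held 54 loci, and in 9 of the 21 variable loci of another pattern lay in between. On chromosome 7, 4 loci over 25.08 Mb were called in T2379 alone of the 16 libraries, with 1 locus of another pattern among them. Those at chr7:89224552-89226851, chr7:104875380-104877497 and chr7:113539044-113540310 were also called in 7, 5 and 5 libraries of the Chr2-cl mating. The first of these was called in 28 B6/129 libraries as well. A group of 4 loci at chr17:35443775-45211884, also with 1 other in between, was shared by T2379, T2613, T00431, T00460, T09691, T09692, T09695 and the WT mouse T09655. A further 4 loci at chr6:115773182-124753947, with no other variable locus among them, were missing from T09692 and T09693 alone of the 16 libraries. Another 3 loci at chr2:51578409-55258702 were called in T2682 alone of the 16. In the other crosses, each of these 3 was called in 4 libraries of the Chr2-cl mating. Those at chr2:51578409-51580144 and chr2:55255818-55258702 were also called in 49 B6/129 libraries each.

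Loci near Chst1 and Cd59a, genes that lie beside reference ETn elements, were looked at in all libraries. The locus chr2:92507118-92511275 lies 51.7 kb from Chst1, a sulfotransferase gene. Apart from T2379 (824.1 RPM), KO mice had 474.4 to 567.9 RPM, WT mice 467.4 and 473.3 RPM and ES lines 527.5 and 539.4 RPM. All 12 KO libraries lay above both WT libraries (exact permutation p = 0.022, the smallest possible), as did 2.13% of all loci, but edgeR gave a log2 change of 0.19 ± 0.21 with an adjusted p of 1. The locus chr2:103929372-103932649, 3.3 kb from the complement regulator gene Cd59a, had 203.1 to 420.6 RPM in KO mice, again with T2379 the highest, and 217.7 and 236.7 RPM in WT mice (exact permutation p = 0.857, edgeR adjusted p = 1).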

How the data were processed

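ETn capture-seq was analysed in 16 B6 libraries, with all 87 libraries used to define loci. The authors mapped both mates with Bowtie to mm9, removed duplicates with SAMtools, kept unique reads whose mate lay in an ETn repeat and joined reads within 1000 bp with bedtools (tool versions not given in the sources used here). In the files as deposited, each region of a library has its raw read count, and no repeat filter was applied to them here.

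Counts were divided by the library total to give RPM. Regions called at 10 RPM in any library were joined within 1000 bp into loci, and all reads of a library within a locus were summed. An own search of the capture probes in the genome, by shared words of 24 bases, gave the reference ETn sequence within 1 kb of a locus. Genes came from the annotation of NCBIM37, the assembly of mm9. Guides and oligonucleotides were matched to it with samtools 1.23.1 and pysam 0.24.0. Mouse sequences are from that genome, and the capture probes from the study's supplementary tables.

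Locus counts were tested with edgeR 4.0.16 (TMM factors, quasi-likelihood F test, 1 fit over the 5 groups, Benjamini-Hochberg over 2457 autosomal loci, threshold 0.05) in R 4.3.3, with the SE of a log2 change taken as its size over the square root of F, and single values with two-sided exact permutation tests of the difference of means. The scripts were tested on simulated data. P values measure the spread between these libraries, each of 1 animal or cell line. The tests treat the KO mice as independent, although F3 and F4 animals descend from the founders, which limits what the p values can show. Depth was 525419 to 1046650 reads, and a level of 10 RPM stands for 5.25 to 10.47 reads.

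Alternatives were DESeq2 1.42.0, library totals without TMM, no filter on low counts, X and Y loci included, other thresholds and joining distances, thinning to the shallowest library, blood libraries alone, and leaving out each library. Tissue as a covariate among the mice alone and other filters on X-linked loci were chosen after seeing the data.

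The members, lists and tests were chosen with earlier results of these data known. Loci were named by rule. These were all called loci of the interval, all private regions of F3 and F4 animals, the 3 highest of other libraries, the 10 lost loci highest in founders, the 10 largest edgeR changes per contrast, the 10 highest variable loci, and the loci nearest to Chst1 and Cd59a. Other loci named in the text were chosen after their values were seen. Of the loci this rule takes, 1 is not reported here.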

Additional observations from a re-analysis of the deposited data

Results flagged for a closer look

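Within groups of 4 to 10 libraries, 21 sets of values were tested by Dixon's criterion for a library far from the rest. No share by chance is given, because the sets share libraries and reads and some hold only 0 or 1 read per library. It picked 9, and 7 of them were values of the founder T2379. Among the founders, T2379 was far above the others in summed reads of the deleted interval (338.8 RPM), in called loci (2664), in private regions (90), at chr4:146107781-146109027 (45.7 RPM) and at chr4:146917867-146925152 (220.8 RPM). Among the 6 female mice it was far below the others in X-linked dose (-0.26, log2) and far above them in reads on chromosome Y (256.9 RPM).

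The founder T2682 was apart at chr4:146815715-146816638, where its 1.2 RPM is 1 read and the other founders had none. In F4, T09694 was apart in private regions, with 5 against 0 or 1 in the other F4 animals. These values are given without an explanation, and none was tested.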

How the results depend on the processing

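With DESeq2, 16 loci passed between KO and WT mice and 15 between KO mice and ES cells. Blood libraries alone gave 27 and tissue as a covariate among the mice 411 loci between KO and WT, and leaving out each library in turn gave 7 to 23 for KO against WT, 5 to 25 for KO against ES cells and 0 to 5 for F4 against founders. Group and tissue over all 16 libraries could not be fitted together (rank 8 for 9 terms), and that fit was not run. Reads in the deleted interval kept their direction, with a difference of -1782.3 RPM in blood (exact permutation p = 0.333) and -1776.8 to -1750.9 RPM when each library was left out, where 1 WT mouse alone cannot reach the threshold. Gained loci shared by descendants numbered 0 to 9 when each library was left out. Gained loci in 1 descendant numbered 3 at 5 RPM, 15 with reads allowed in ancestors and 0 to 1 when each library was left out. Lost loci were 42 below 10 RPM in place of no read. Private regions of founders, WT mice and ES cells, 101 in all, were 880 at 5 RPM, 58 at 20 RPM, 55 at 10 reads, 10 without any read elsewhere, 54 away from ETn capture sequence and 11 to 104 when each library was left out. Without T2379, where they were 11, they were 2 at 20 RPM, 6 at 10 reads, 18 after thinning and 4 without any read elsewhere. The 23 called results of edgeR gave 510 values under the alternatives, of which 433 kept the side of the threshold, 77 lost it and 0 changed direction. No paired analysis was possible because replicate numbers follow accession order and pair no animals. Low depth limits calls near 10 RPM, above all in T2379.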
